A study of Mus musculus with 10 samples.

Results

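The enzymes that make and regenerate tetrahydrobiopterin were followed through 10 mouse RNA libraries. The set holds 5 genes (Gch1, Pts, Spr, Qdpr and Pcbd1) of the 25239 gene rows in the deposited table, and all 5 were among the 15416 rows that entered the test between the groups. They were picked by symbol as the named enzymes of 1 pathway, and they were chosen with results of the same DDR2-plus against PSC contrast already in view. Their differences between the groups are therefore a description, given with no test. The libraries were made from cells of the calvarial sutures of the skull, isolated by fluorescence-activated sorting at postnatal day 7. Of these libraries 5 are labelled DDR2-plus and 5 are labelled PSC, an abbreviation that the labels leave unexpanded. Both groups carry the genotype label WT and the cell type label of calvarial stem cells, and the protocol names Ctsk-Cre mice (n=5) as the source, so all cells may carry a Cre driven by the promoter of cathepsin K. The sources used here name no floxed allele or reporter and do not say which animal gave which library, so a p-value covers no more than the scatter among these libraries, which may be technical.

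Tetrahydrobiopterin is a reduced pterin cofactor. The aromatic amino acid hydroxylases, the nitric oxide synthases and alkylglycerol monooxygenase all need it, so it stands behind serotonin, melatonin, catecholamine and nitric oxide synthesis and the breakdown of ether lipids. GTP cyclohydrolase I (Gch1) opens the pathway from GTP and is usually its rate-limiting enzyme, pyruvoyl-tetrahydropterin synthase (Pts) and sepiapterin reductase (Spr) complete the synthesis, and pterin carbinolamine dehydratase (Pcbd1) and dihydropteridine reductase (Qdpr) return the used cofactor to its reduced form. The best known users are monoamine neurons, the pineal gland, the liver and the endothelium.

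The 3 promoters that follow belong to the genes with the largest differences in synthesis and its control: the entry enzyme, its feedback regulator Gchfr and the terminal reductase Spr. Each is the 250 bases before the gene's start in RefSeq on build GRCm38.p6, read 5′ to 3′ on the strand of the gene, with matches to 5 short motifs in capitals. The windows are chr14:47189414-47189663 (minus strand) for Gch1, chr2:119167538-119167787 (plus strand) for Gchfr and chr6:85137765-85138014 (minus strand) for Spr.
Gch1: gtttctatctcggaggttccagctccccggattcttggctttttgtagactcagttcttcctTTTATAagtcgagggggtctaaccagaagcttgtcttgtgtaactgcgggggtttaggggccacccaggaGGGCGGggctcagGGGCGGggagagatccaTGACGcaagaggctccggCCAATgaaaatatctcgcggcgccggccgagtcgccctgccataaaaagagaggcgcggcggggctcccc
Gchfr: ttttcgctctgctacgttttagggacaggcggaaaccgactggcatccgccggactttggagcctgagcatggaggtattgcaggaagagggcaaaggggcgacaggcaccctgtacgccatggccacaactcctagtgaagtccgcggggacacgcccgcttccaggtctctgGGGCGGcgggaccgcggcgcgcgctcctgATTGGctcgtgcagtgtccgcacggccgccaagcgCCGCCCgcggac
Spr: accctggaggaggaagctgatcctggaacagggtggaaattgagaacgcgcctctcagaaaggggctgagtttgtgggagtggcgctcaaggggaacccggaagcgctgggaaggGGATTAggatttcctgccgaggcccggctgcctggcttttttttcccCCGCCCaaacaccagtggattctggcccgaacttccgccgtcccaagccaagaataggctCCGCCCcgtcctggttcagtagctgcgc

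The motifs searched, on both strands, were the CCAAT box by those letters, TGACG (the core of a cyclic AMP response element), GGGCGG (GC box), TAATCC (the core bound by the photoreceptor factor CRX) and TATAAA (the box that positions many start sites), and none of the printed matches overlap another. In the Gch1 window CCAAT began 70 bases before the start, TGACG 88 bases before it, GGGCGG 105 and 118 bases before it, and TATAAA on the opposite strand 188 bases before it. The Gchfr window held CCAAT on the opposite strand at 47 bases and GGGCGG at 76 bases and, on the opposite strand, at 12 bases. The Spr window held GGGCGG on the opposite strand at 88 and 28 bases and TAATCC on the opposite strand at 135 bases. Among 32851 promoter windows of the same length, 33.8% held CCAAT, 17.8% TGACG, 32.7% GGGCGG, 6.25% TAATCC and 12.4% TATAAA. The matches are letters in a window and were not measured as binding.

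Total counts ran from 49843470 to 62021992 in the DDR2-plus libraries and from 43419129 to 58270419 in the PSC libraries. After TMM scaling 1 count was worth 0.0146 to 0.0177 CPM (the count scaled to a common library size) in DDR2-plus and 0.0188 to 0.0249 CPM in PSC, and every CPM value given here is scaled in that way. Ddr2 itself was lower in the DDR2-plus libraries, at 112 CPM on average against 152 CPM in PSC (log2 fold change -0.44, SE 0.0652, adjusted p = 0.000165 in edgeR's quasi-likelihood test), so the transcript of the sort marker did not rank the groups as their names do. Of 9 genes listed as a check of the sort labels, 5 were lower in DDR2-plus and none was higher by this test. Their summed level was 528 to 642 CPM in DDR2-plus, against 887 to 981 CPM in PSC. The list was not split into genes that a sort selects for or against, so its count and sum do not measure sort identity. Thy1, which is on it, averaged 0.699 CPM in DDR2-plus, against 0.807 CPM in PSC. All 8 chondrocyte markers were higher in DDR2-plus, where they summed to 88500 to 122000 CPM, against 12400 to 28200 CPM in PSC. Of the 8 osteoblast markers 6 were lower and none higher, with sums of 29100 to 51500 CPM in DDR2-plus, against 157000 to 179000 CPM in PSC. Of the 6 tendon markers 1 was higher and 5 were lower, with sums of 3210 to 4160 CPM in DDR2-plus, against 4840 to 5700 CPM in PSC. The part of these cell type markers in the values that follow was not tested. In bulk libraries fewer cells of a type and less RNA per cell cannot be told apart.

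Gch1, on chromosome 14 (47153895 to 47189413, minus strand), stood furthest apart of the members. It measured 21, 26.2, 32.4, 22.7 and 23.6 CPM in DDR2-plus libraries 1 to 5, against 3.26, 3.06, 2.82, 2.84 and 2.76 CPM in PSC libraries 1 to 5. The groups did not overlap, and the lowest DDR2-plus library lay far above the highest PSC library. Non-overlap of this kind was seen in 30.1% of all tested genes. The means were 25.2 ± 4.46 CPM in DDR2-plus, against 2.95 ± 0.207 CPM in PSC (SD, n = 5 each), an 8.53-fold difference with a log2 fold change of 3.09 (SE 0.152). The values rest on 7572 counts in DDR2-plus and 666 counts in PSC, so that Gch1 was detected in every PSC library, with 111 to 173 counts. Of all tested genes, 3.37% had a larger log2 fold change. Within DDR2-plus the coefficient of variation of Gch1 was 17.7%, and within PSC it was 7.01%.

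Pts, on chromosome 9 (50521617 to 50528724, minus strand), makes the pyruvoyl intermediate from the product of Gch1. It measured 29.1, 31.6, 30.8, 32.6 and 28.4 CPM in DDR2-plus libraries 1 to 5, against 20, 15.2, 17.1, 25.9 and 18.1 CPM in PSC libraries 1 to 5. All DDR2-plus libraries were above all PSC libraries, but PSC 4 came close to the lowest of them. The means were 30.5 ± 1.75 CPM in DDR2-plus, against 19.2 ± 4.13 CPM in PSC (SD, n = 5 each), a 1.59-fold difference (log2 fold change 0.66, SE 0.134). Here the spread was the wider in PSC, unlike that of Gch1.

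Spr, on chromosome 6 (85130176 to 85137766, minus strand), catalyses the last reduction and was the member that ran the other way. It measured 10.9, 11.8, 15.8, 10.5 and 13 CPM in DDR2-plus libraries 1 to 5, against 18.1, 20.4, 21.2, 21.4 and 23 CPM in PSC libraries 1 to 5. Every DDR2-plus library was below every PSC library, with DDR2-plus 3 the nearest to them. The means were 12.4 ± 2.14 CPM in DDR2-plus, against 20.8 ± 1.76 CPM in PSC (SD, n = 5 each), 1.68-fold lower in DDR2-plus (log2 fold change -0.75, SE 0.135). Of the stretches of 50 bases in Spr transcripts, 2.4% also occur in other genes, mostly in its pseudogene Spr-ps1.

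The recycling enzymes showed smaller differences, and their groups overlapped. Qdpr, on chromosome 5 (45434021 to 45450236, minus strand), reduces the quinonoid dihydropterin that the hydroxylases leave behind. It measured 47.5, 46, 48.6, 50.9 and 61.3 CPM in DDR2-plus libraries 1 to 5, against 34.6, 40.8, 48.4, 33.8 and 46.3 CPM in PSC libraries 1 to 5. PSC 3 and PSC 5 lay within the DDR2-plus range and the other 3 PSC libraries below it. The means were 50.9 ± 6.09 CPM in DDR2-plus, against 40.8 ± 6.61 CPM in PSC (SD, n = 5 each), a 1.25-fold difference (log2 fold change 0.32, SE 0.12). An antisense gene, Gm42413, shares 18.6% of the exonic bases of Qdpr, and reads of the pair cannot be told apart without strand.

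Pcbd1, on chromosome 10 (61089331 to 61094324, plus strand), removes water from the carbinolamine before Qdpr acts. It measured 2.3, 2.38, 5.4, 3.05 and 1.48 CPM in DDR2-plus libraries 1 to 5, against 1.85, 2.21, 3.1, 1.51 and 2.12 CPM in PSC libraries 1 to 5. The DDR2-plus range enclosed the PSC range, with DDR2-plus 3 the highest of the 10 libraries and DDR2-plus 5 the lowest. The means were 2.92 ± 1.49 CPM in DDR2-plus, against 2.16 ± 0.594 CPM in PSC (SD, n = 5 each), with a log2 fold change of 0.44 (SE 0.395). Without DDR2-plus 3 that log2 fold change was 0.08. The coefficient of variation was 51.1% in DDR2-plus and 27.5% in PSC, the widest spread of any member in either group.

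**Figure D1:**
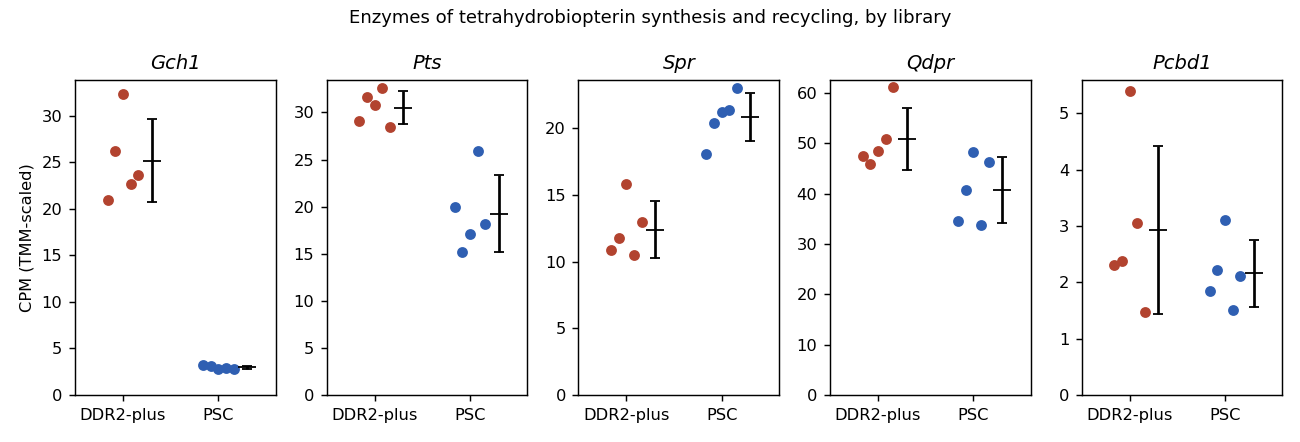
CPM (TMM-scaled, y axes starting at 0) of the 5 enzymes, 1 point per library, DDR2-plus on the left and PSC on the right of each panel, with bars for the mean and SD of 5 libraries. Gch1 and Pts do not overlap between the groups and are higher in DDR2-plus, Spr does not overlap and is lower in DDR2-plus, and Qdpr and Pcbd1 overlap.

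Over the 5 members the groups did not overlap in 3, of which 2 (Gch1 and Pts) were higher and 1 (Spr) lower in DDR2-plus, beside no overlap in 30.1% of all tested genes. The median log2 fold change of the members was 0.44, and that of all tested genes was 0.04. By the test across all genes, 39.1% of the tested genes changed, 20.1% being higher and 19% lower in DDR2-plus, and because this contrast was in view when the members were chosen nothing is read from their count against it.

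Levels of different genes were compared per kilobase of the longest protein-coding transcript. In DDR2-plus the order of the mean levels was Qdpr (36.9 ± 4.41 CPM per kb), Pts (29.2 ± 1.68), Spr (10.1 ± 1.74), Gch1 (9.08 ± 1.61) and Pcbd1 (3.7 ± 1.89). In PSC the order was Qdpr (29.6 ± 4.79 CPM per kb), Pts (18.4 ± 3.95), Spr (16.9 ± 1.43), Pcbd1 (2.73 ± 0.753) and Gch1 (1.06 ± 0.0745), all as mean ± SD with n = 5. Spr and Gch1 overlapped across the DDR2-plus libraries, whereas in PSC it was Qdpr and Pts, and Pts and Spr, that overlapped. Gch1 was therefore the lowest of the 5 in PSC and ranked just under Spr in DDR2-plus. Among the 14280 tested genes with a transcript length, its level per kilobase stood at percentile 65.9 in DDR2-plus and 24.9 in PSC, while Qdpr stood at percentile 90 in DDR2-plus and 86.8 in PSC. Pts stood at percentile 87.5 in DDR2-plus and 79.9 in PSC, Spr at 68.2 in DDR2-plus and 78.5 in PSC, and Pcbd1 at 44.8 in DDR2-plus and 39.4 in PSC.

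Ratios within a library describe the balance of the steps without any scaling between libraries. The ratio of Gch1 to Pts, both per kilobase, ran from 0.263 through a median of 0.312 to 0.397 in DDR2-plus and from 0.0413 through 0.0615 to 0.0762 in PSC. The ratio of Gch1 to Spr ran from 0.804 through 0.91 to 0.983 in DDR2-plus and from 0.0534 through 0.0591 to 0.0796 in PSC. Neither ratio overlapped between the groups, and in both groups Gch1 stayed below Spr per kilobase in every library. In DDR2-plus that order rests on the transcript lengths used, 2775 bases for Gch1 and 1230 bases for Spr. Before division by length, Gch1 was the higher there, at 21 to 32.4 CPM against 10.5 to 15.8 CPM for Spr. The ratio of Pts to Spr ran from 2.29 through 3.14 to 3.67 in DDR2-plus and from 0.873 through 0.948 to 1.42 in PSC, again with no overlap. The ratio of Qdpr to Pcbd1, the pair of recycling enzymes, ran from 5.15 through 11.1 to 23.6 in DDR2-plus and from 8.92 through 10.7 to 12.8 in PSC. The DDR2-plus range of that last ratio enclosed the PSC range.

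**Figure D2:**
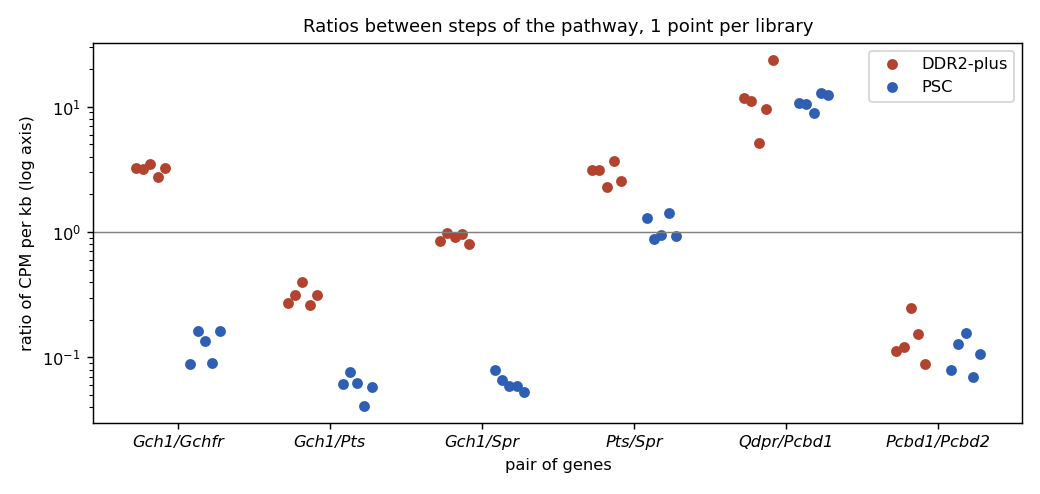
Ratios of CPM per kilobase between genes of the pathway (y axis, logarithmic), 1 point per library, with DDR2-plus left of PSC in each pair. The ratios of Gch1 to Gchfr, Pts and Spr and of Pts to Spr do not overlap between the groups, and those of Qdpr to Pcbd1 and Pcbd1 to Pcbd2 do.

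The genes around the pathway were read in the same fit, from lists that hold none of the members. These lists, like the marker lists, were chosen with earlier results of these data known. Their counts and adjusted p-values are therefore a description as well. Of 41 such genes 28 passed the filter on low counts, and 13 of these (46.4%) changed, against 39.1% of all tested genes. Of the 28, 6 were higher in DDR2-plus and 7 were lower, and their median log2 fold change was -0.00. The 6 include Tph1 and Aanat, which passed the filter through the DDR2-plus libraries alone, so that their direction was fixed by the filter and their place in the counts is no support.

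The regulator, co-chaperone, paralog and salvage list holds 7 genes, of which 6 were tested, 1 was higher, 2 were lower and 3 gave no call. Gchfr encodes the feedback regulatory protein that binds GTP cyclohydrolase and mediates its inhibition by the finished cofactor. It measured 1.51, 1.92, 2.16, 1.93 and 1.67 CPM in DDR2-plus libraries 1 to 5, against 8.5, 4.39, 4.82, 7.35 and 3.96 CPM in PSC libraries 1 to 5. Gchfr was thus lower in every DDR2-plus library than in any PSC library, 3.15-fold by its means of 1.84 ± 0.253 CPM in DDR2-plus, against 5.8 ± 2 CPM in PSC (log2 fold change -1.66, SE 0.295, adjusted p = 0.000706 in edgeR). The ratio of Gch1 to Gchfr per kilobase ran from 2.73 through a median of 3.24 to 3.49 in DDR2-plus and from 0.0892 through 0.136 to 0.162 in PSC. Gch1 was above its regulator in all 5 DDR2-plus libraries and below it in all 5 PSC libraries.

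Dnajc12, a co-chaperone of the aromatic amino acid hydroxylases, measured 10.6, 13.3, 14.7, 13.3 and 12.8 CPM in DDR2-plus libraries 1 to 5, against 5.69, 4.86, 6.62, 3.23 and 4.63 CPM in PSC libraries 1 to 5. It was 2.59-fold higher in DDR2-plus with no overlap (log2 fold change 1.37, SE 0.2, adjusted p = 0.000157 in edgeR). Cbr3, a carbonyl reductase related to Cbr1, averaged 9.13 ± 2.05 CPM in DDR2-plus, against 14.3 ± 3.8 CPM in PSC (log2 fold change -0.64, adjusted p = 0.0269 in edgeR). The Cbr3 call was lost under 7 of the 16 alternative settings, with adjusted p between 0.00866 and 0.174 over all 16. These were library size alone and leaving out DDR2-plus 1, 2, 4 or 5 or PSC 3 or 4. Among the genes with no call was Cbr1, which can reduce the pterin side chain in place of Spr, at 44.2 CPM in DDR2-plus, against 39.4 CPM in PSC (adjusted p = 0.107 in edgeR). Scaled by library size alone, Cbr1 was called higher in DDR2-plus (adjusted p = 0.000612 in edgeR). Pcbd2, the paralog of Pcbd1, gave no call either and averaged 13.7 CPM in DDR2-plus, against 14.1 CPM in PSC (log2 fold change -0.04, adjusted p = 0.83 in edgeR), and the ratio of Pcbd1 to Pcbd2 per kilobase had medians of 0.121 in DDR2-plus and 0.107 in PSC. Pcbd2 was the more abundant of the pair in both groups. Akr1b3, an aldose reductase, had 15 counts in DDR2-plus and 17 counts in PSC and was not tested.

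Among the enzymes that need the cofactor, tryptophan hydroxylase Tph1, the first step of serotonin synthesis outside the brain and of melatonin synthesis in the pineal gland, showed the largest difference. It measured 71.9, 64, 85.2, 66.3 and 60.7 CPM in DDR2-plus libraries 1 to 5, whereas PSC 3 held 1.37 CPM and the other 4 PSC libraries held 0 counts. All 59 PSC counts came from PSC 3. Without that library the difference was at least 4210-fold, with the floor set at 3 counts over the group, against a ratio of means of 255 with it. Intervals and floors of this kind cover counting error only.

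Agmo, the alkylglycerol monooxygenase that cleaves ether lipids, ran in the opposite direction. It measured 1.21, 0.664, 1.39, 0.483 and 0.75 CPM in DDR2-plus libraries 1 to 5, against 4.58, 4.07, 2.71, 4.76 and 5.25 CPM in PSC libraries 1 to 5. Agmo was 4.75-fold lower in DDR2-plus with no overlap (log2 fold change -2.25, SE 0.389, adjusted p = 0.00057 in edgeR). Tyrosine hydroxylase Th, the first step of catecholamine synthesis, averaged 1.38 CPM in DDR2-plus, against 0.613 CPM in PSC (adjusted p = 0.211 in edgeR). Endothelial nitric oxide synthase Nos3 averaged 1.03 CPM in DDR2-plus, against 0.28 CPM in PSC (adjusted p = 0.189 in edgeR), and 32.3% of its exonic bases lie under the antisense genes Atg9b and Gm15587 together. The other 4 of the 8 genes did not pass the filter on low counts and were not tested. Among them neuronal tryptophan hydroxylase Tph2 had 8 counts in DDR2-plus and 0 in PSC, and inducible nitric oxide synthase Nos2 had 0 counts in DDR2-plus and 11 in PSC. Neuronal nitric oxide synthase Nos1 had 337 counts in DDR2-plus and 8 in PSC. Its DDR2-plus mean of 1.13 CPM was no lower than that of Nos3, but it was scattered, from 0.0699 to 3.39 CPM. Of the 4 genes tested, 1 was higher, 1 was lower and 2 gave no call, and their median log2 fold change was 1.52. That median lies between the uncalled Th and Nos3 and shows no shift of the list.

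In the monoamine and melatonin branch 6 of 10 genes were tested, and 4 were higher in DDR2-plus, none was lower and 2 gave no call. Aromatic amino acid decarboxylase Ddc, which makes serotonin from the product of Tph1, measured 9.06, 8.32, 8.31, 8.2 and 6 CPM in DDR2-plus libraries 1 to 5, against 2.04, 3.08, 3.03, 1.69 and 1.17 CPM in PSC libraries 1 to 5. Ddc was 3.62-fold higher in DDR2-plus with no overlap (log2 fold change 1.85, SE 0.293, adjusted p = 0.000285 in edgeR). Aanat, the acetyltransferase that commits serotonin to melatonin, measured 1.56, 2.43, 4.12, 3.41 and 2.16 CPM in DDR2-plus libraries 1 to 5 and had 0 counts in every PSC library. Against 836 DDR2-plus counts this was an at least 205-fold higher level, with the floor at 3 counts over the group. It passed the filter through DDR2-plus alone and is described without its p. Asmt, the methyltransferase that finishes melatonin, did not follow Aanat, with 3.74 ± 0.918 CPM in DDR2-plus, against 5.86 ± 1.14 CPM in PSC (log2 fold change -0.65, adjusted p = 0.0588 in edgeR). Asmt was called lower in DDR2-plus under 4 of the 16 alternatives, with adjusted p = 0.0271 in DESeq2, 0.0419 in limma-voom, and 0.0397 without DDR2-plus 3 and 0.0429 without PSC 2 in edgeR.

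The monoamine oxidases, which break serotonin and catecholamines down, were higher in DDR2-plus as well. Maob measured 13.9, 14.7, 13.9, 14.8 and 11.6 CPM in DDR2-plus libraries 1 to 5, against 1.55, 4.28, 2.5, 4.85 and 3.09 CPM in PSC libraries 1 to 5, a 4.24-fold difference (log2 fold change 2.08, SE 0.275, adjusted p = 7.16e-05 in edgeR). Maoa averaged 18 ± 2.08 CPM in DDR2-plus, against 11.6 ± 2.27 CPM in PSC, a 1.55-fold difference (log2 fold change 0.63, SE 0.153, adjusted p = 0.00561 in edgeR). Slc18a2, the vesicular monoamine transporter, averaged 5.89 CPM in DDR2-plus, against 4.2 CPM in PSC (adjusted p = 0.173 in edgeR, and 0.037 with library size alone). Dbh, Slc18a1 and Slc6a4 were under 1 CPM in both groups, and Pnmt had 0 counts in all 10 libraries. Dbh and Pnmt encode the steps that turn dopamine into noradrenaline and noradrenaline into adrenaline.

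In the nitric oxide branch 6 of 8 genes were tested, none was higher, 1 was lower and 5 gave no call. Ddah2, assigned to the family that clears methylarginine inhibitors of nitric oxide synthase, measured 85.3, 39.7, 65.4, 54.3 and 49.3 CPM in DDR2-plus libraries 1 to 5, against 109, 118, 151, 114 and 150 CPM in PSC libraries 1 to 5. It was 2.19-fold lower in DDR2-plus with no overlap (log2 fold change -1.13, SE 0.181, adjusted p = 0.000323 in edgeR). Its relative Ddah1 averaged 29.5 CPM in DDR2-plus, against 34.9 CPM in PSC (adjusted p = 0.213 in edgeR), and Gucy1a1, a subunit of the nitric oxide receptor guanylate cyclase, averaged 19.3 CPM in DDR2-plus, against 24.3 CPM in PSC (log2 fold change -0.33, adjusted p = 0.224 in edgeR). Without DDR2-plus 3 the log2 fold change of Gucy1a1 was -0.56 and it was called lower (adjusted p = 0.0188 in edgeR). Its partner subunit Gucy1b1 averaged 2.71 CPM in DDR2-plus, against 4.24 CPM in PSC (adjusted p = 0.076 in edgeR), and was called lower without DDR2-plus 1 (adjusted p = 0.0412 in edgeR), in DESeq2 (0.0178) and in limma-voom (0.0454).

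The GTP supply list, which covers the substrate of Gch1, had all 6 genes tested, of which none was higher, 3 were lower and 3 gave no call. Nme2, a nucleoside diphosphate kinase that turns GDP into GTP, averaged 97.5 ± 7.18 CPM in DDR2-plus, against 187 ± 10.8 CPM in PSC, 1.92-fold lower in DDR2-plus (log2 fold change -0.94, SE 0.0704, adjusted p = 1.09e-06 in edgeR). Another annotated gene, Gm20390, shares 48.9% of the exonic bases of Nme2. Impdh1, which catalyses the committed step to guanine nucleotides, averaged 72.5 ± 7.58 CPM in DDR2-plus, against 109 ± 13.4 CPM in PSC, 1.5-fold lower in DDR2-plus (log2 fold change -0.59, SE 0.0988, adjusted p = 0.000467 in edgeR). Nme1 averaged 137 ± 7.6 CPM in DDR2-plus, against 175 ± 16.2 CPM in PSC, 1.28-fold lower in DDR2-plus (log2 fold change -0.35, SE 0.0749, adjusted p = 0.00235 in edgeR), a call that was lost when libraries were scaled by size alone (adjusted p = 0.422). Guk1 averaged 60.6 CPM in DDR2-plus, against 62.6 CPM in PSC and Gmps 43.2 CPM in DDR2-plus, against 37.1 CPM in PSC, with no call for either, but Gmps was called higher in DDR2-plus with library size alone (adjusted p = 0.00364 in edgeR).

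**Figure D3:**
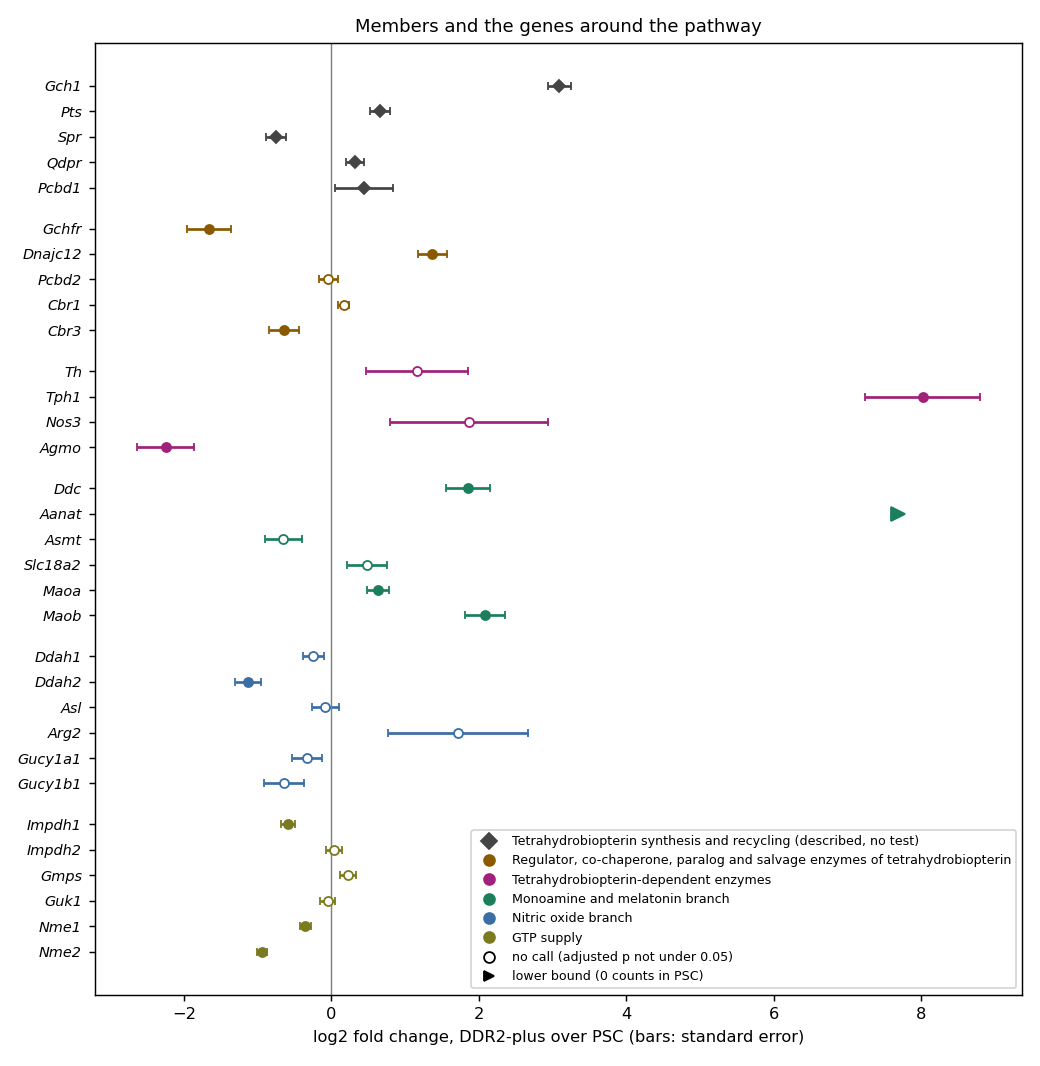
Log2 fold change of DDR2-plus over PSC (x axis) with its standard error for the 5 members (diamonds, described with no test) and tested genes around the pathway, in groups by function. Filled circles passed an adjusted p of 0.05 in edgeR, open circles did not, and the triangle is the lower bound for Aanat, which had 0 counts in PSC; Gch1, Tph1, Ddc, Maob and Dnajc12 lie to the right of 0 and Spr, Gchfr, Agmo and Ddah2 to the left.

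Most genes listed for pineal and photoreceptor cells, Tph1 among them, were higher in DDR2-plus, as Gch1 was. Asmt had the higher mean in PSC. Of 12 such markers 10 were tested and 8 were higher in DDR2-plus, with none lower. That count was largely fixed by the filter on low counts, which most of the 8 passed through DDR2-plus alone: Cdhr1 and Aanat had 0 counts in PSC, Crx, Rbp3 and Lhx4 had 2 each and Chrna3 had 4. The summed level of the list was 164 to 262 CPM in DDR2-plus, against 4.5 to 8.74 CPM in PSC. Without Tph1, Aanat and Asmt, which also stand in the pathway lists, the remaining 9 summed to 94.2 to 168 CPM in DDR2-plus, against 0.0687 to 1.22 CPM in PSC. Asmt, at 4.32 to 7.52 CPM in PSC, made up most of the PSC sum of the full list. Cdhr1, Aanat and Gngt1 were at 0 in all PSC libraries, and none of the 12 was at 0 in all DDR2-plus libraries. The retinoid-binding protein gene Rbp3 measured 38.1, 46.1, 87.9, 50.5 and 44.5 CPM in DDR2-plus libraries 1 to 5 and at most 0.045 CPM in PSC. The markers did not all rank the DDR2-plus libraries as Gch1 did, whose highest library was DDR2-plus 3 and whose lowest was DDR2-plus 1. DDR2-plus 3 was also the highest for Tph1, Rbp3, Sag, Crx, Cdhr1 and Aanat, but Chrna3 (16 CPM) and Isl2 (3.19 CPM) were highest in DDR2-plus 1, and Pde6b was at 0 in DDR2-plus 3 and highest in DDR2-plus 5 (1.52 CPM). DDR2-plus 1 was also the lowest for Rbp3, Sag and Aanat, whereas Crx and Cdhr1 were lowest in DDR2-plus 2 and Tph1 in DDR2-plus 5. The part of these cells in the levels of Gch1 and Tph1 was not tested.

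**Figure D4:**
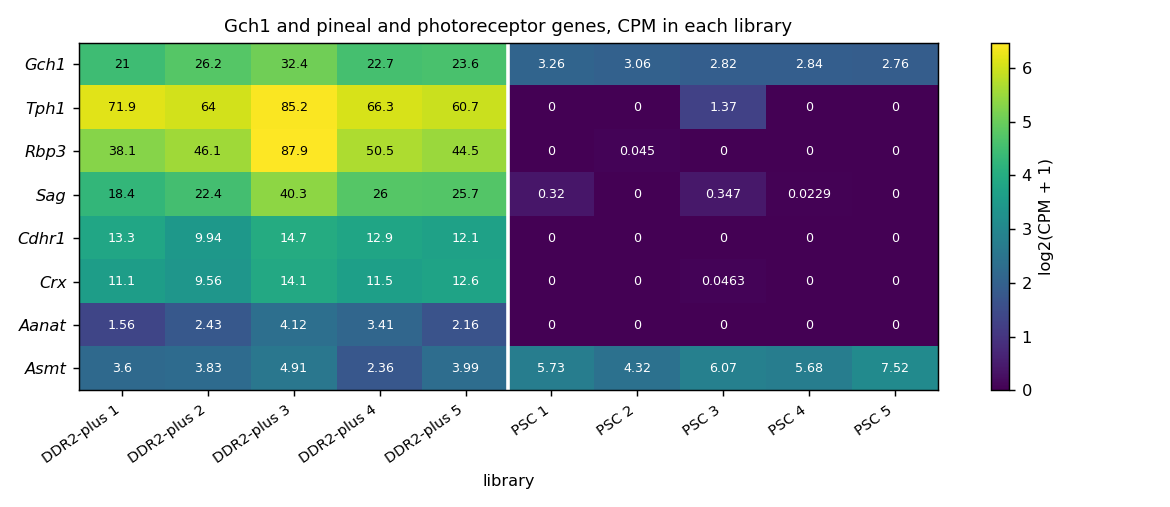
CPM of Gch1 and of 7 pineal and photoreceptor genes (rows) in each library (columns, DDR2-plus left of the white line and PSC right of it), with colour on a log2(CPM + 1) scale. Gch1 keeps 2.76 to 3.26 CPM in PSC, where Cdhr1 and Aanat are at 0 in all 5 libraries, and Asmt is the row with the higher mean in PSC.

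Markers of other cell types that use the cofactor, or that can be carried into a sort, were read as well. The sums of the neuronal, glial and mast cell lists did not overlap between the groups, and those of the endothelial and blood cell lists did. Of 8 neuronal markers 7 were higher in DDR2-plus, with sums of 51.6 to 152 CPM in DDR2-plus, against 6.78 to 13.8 CPM in PSC, and Slc17a6 was at 0 in all PSC libraries. All 8 Schwann cell and glial markers were higher in DDR2-plus, with sums of 437 to 949 CPM in DDR2-plus, against 40.7 to 96.2 CPM in PSC. Some of these, such as Slc17a6, Snap25 and Syt1 among the neuronal and Aqp4 among the glial markers, also passed the filter through DDR2-plus alone. Only 2 of 8 mast cell markers were tested, and both (Kit and Hdc) were higher, with sums over the list of 8.1 to 16.4 CPM in DDR2-plus, against 1.05 to 7 CPM in PSC. Hdc had 34 counts in PSC and passed the filter through the DDR2-plus libraries. The defining mast cell genes were at or near 0: Mcpt4 and Ms4a2 had 0 counts in all DDR2-plus libraries, where Cpa3 had 8 counts and Fcer1a 2, and Cpa3 and Fcer1a had 0 counts in PSC. Of 6 endothelial markers 5 were tested, 2 were higher and 2 were lower, with sums of 21.6 to 41.9 CPM in DDR2-plus, against 17.9 to 40.4 CPM in PSC. Of the higher ones, Pecam1 had 47 counts in PSC and also passed the filter through the DDR2-plus libraries. Of 6 macrophage and blood cell markers 3 were tested and 1 was higher, with sums of 11.9 to 24.5 CPM in DDR2-plus, against 6.74 to 17.5 CPM in PSC. The part of the neuronal, glial, endothelial and blood cell markers in the pathway's values was not tested.

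The genes most like each member across the 10 libraries were ranked by Pearson's correlation of log2 CPM. The ranking covered 13003 tested genes with a mean of at least 1 CPM, and unnamed gene models and clone symbols were left out. The libraries form 2 groups, so any gene that separates them scores high, and the correlation of deviations from the group means is given beside it, over the same 10 libraries. The genes were picked by the first correlation, to which these deviations contribute, so the second is no separate check. For Gch1 the top 3 were Spink4, Cabp2 and Rbp3, each with r = 0.997 and with deviations correlating at 0.686, 0.921 and 0.662. Spink4 and Cabp2 averaged 5.94 and 4.78 CPM in DDR2-plus and were at 0 in PSC, where Rbp3 averaged 0.00901 CPM. The deviations of these 3 genes therefore come almost wholly from the DDR2-plus libraries. For Pts they included Sned1 and Tor4a (r = 0.974 and 0.968, deviations 0.93 and 0.869). For Spr they were Igfbp4, Map2k2 and Fbln5 (r = 0.989, 0.988 and 0.987, deviations 0.934, 0.926 and 0.921). For Qdpr they were Asic1, Scaper and Spice1 (r = 0.953, 0.935 and 0.926, deviations 0.939, 0.881 and 0.862), and for Pcbd1 Acyp2, Abi3 and Ahcy (r = 0.854, 0.808 and 0.791, deviations 0.835, 0.793 and 0.876). No gene appeared under more than 1 member.

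Among the members themselves, deviations from the group means were loosely related. The 10 pairs ran from -0.627 for Pts with Qdpr to 0.551 for Gch1 with Spr, and Gch1 with Pts, neighbours in the pathway, gave 0.018, all as a description over 10 libraries.

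**Figure D5:**
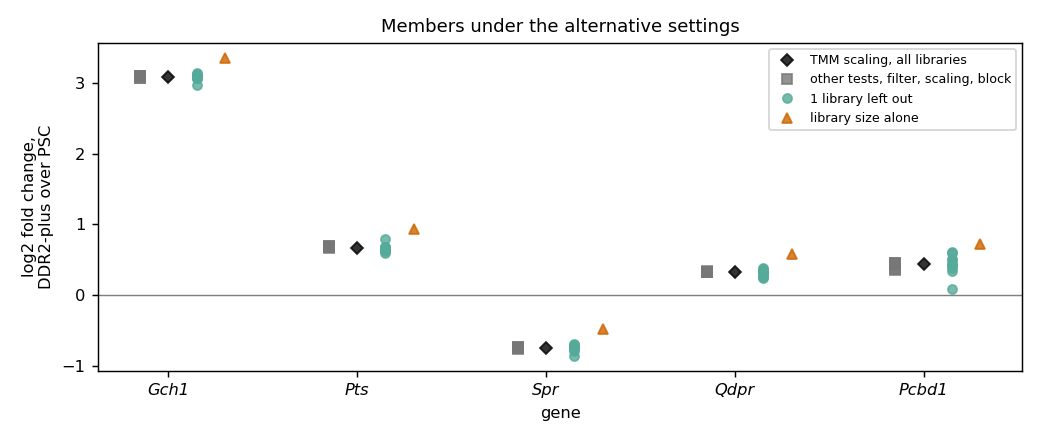
Log2 fold change of DDR2-plus over PSC (y axis) of the 5 members with all libraries and TMM scaling (diamonds), with other tests, filters and scalings (squares), with 1 library left out (circles) and with library size alone (triangles). Every value of a member stays on 1 side of 0; the lowest for Pcbd1, 0.08, is that without DDR2-plus 3.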

How the data were processed

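RNA was measured in 10 libraries of sorted cells, 5 per group, grouped by their titles. The authors' deposited table holds raw counts, in whole numbers and with no normalization, for each gene symbol. Per the labels' protocols, cDNA came from a template-switching kit and the libraries from a transposase kit, which does not mark strand. Per the submitters' processing notes, the build was mm10 and DESeq was used. For the aligner, the counting tool and the annotation, the entry is the same: not given in the sources used here. Amplified reads carry no molecular identifiers, and 1 count was worth 0.0146 to 0.0249 CPM.

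The counts went into edgeR 4.0.16 (R 4.3.3), quasi-likelihood test, with TMM factors, filterByExpr, no covariates and Benjamini-Hochberg adjustment over 15416 genes at 0.05. The fit was also run on simulated counts with known changes, as a check of the code only. Those counts were drawn as independent libraries with far fewer changed genes than were called here. A standard error is the fold change on the log2 scale over the root of its F statistic. Members and gene lists were chosen with earlier results of these data known. All members are named. From each pathway list up to 4 called genes by smallest p and up to 2 uncalled genes by highest level are named, with low genes only listed and some genes not reported here, so Th, Nos3 and Asmt are given as uncalled genes, and Gucy1b1 was added after its values were seen. Likeness used log2 CPM with a prior count of 2. A group at 0 counts was set to a floor of 3 counts over the group. Gene positions, shared bases and transcript lengths come from the GENCODE annotation of mm10, matched by symbol, and promoters from RefSeq (GRCm38.p6), where 7 of 7 genes looked up matched. Libraries of a group differed by at least 40.9 in chi-square per degree of freedom, so none was the same library counted again. Whether any were technical repeats from the same cells was not tested. The alternatives were DESeq2 1.42.0, limma-voom (limma 3.58.1), other scalings, no filter, a replicate block and leaving out each library. The library titles share a number between the groups, and the sources used here do not say whether it marks an animal. The main fit did not use that number, and the replicate block did. None of the 5 same-number correlations of deviations passed 0.1 (0.0289 to 0.0532), but each library correlated best with the library of its own number in the other group. A pairing would give that pattern, and the small size of the correlations does not speak against it. If the libraries are paired, the standard errors and p-values of the main fit leave the pairing out.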

Additional observations from a re-analysis of the deposited data

Results flagged for a closer look

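Library values that stood apart from the other 4 of their group by Dixon's criterion (gap over range above 0.71) were looked for in 65 groups of 5 libraries, from 33 genes, and 6 were found. By chance about 1 in 20 such groups is flagged if values are normally distributed. The groups share libraries, so no excess is read from the count. None of the 6 is a member. Tph1 was at 1.37 CPM in PSC 3 and at 0 in the other PSC libraries, where any count in a single library would have been flagged. Ddc was at 6 CPM in DDR2-plus 5, below 8.2 to 9.06 CPM in the other DDR2-plus libraries. Maob was at 11.6 CPM in DDR2-plus 5, below 13.9 to 14.8 CPM in the others. Cbr3 was at 12.7 CPM in DDR2-plus 3, above 7.74 to 8.67 CPM in the others. Gucy1b1 was at 3.83 CPM in DDR2-plus 1, above 2.08 to 2.57 CPM in the others. Ddah1 was at 28.5 CPM in PSC 5, below 35.6 to 37.2 CPM in the other PSC libraries.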

How the results depend on the processing

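The 5 members kept the sign of their log2 fold change under all 16 alternatives, within 2.97 to 3.36 for Gch1, 0.59 to 0.94 for Pts, -0.86 to -0.48 for Spr, 0.24 to 0.59 for Qdpr and 0.08 to 0.72 for Pcbd1. Scaling by library size alone moved the median log2 fold change of all genes to 0.31, against 0.04 with TMM. Under it 5421 genes were higher and 1538 lower in DDR2-plus, against 3096 and 2926 with TMM. Gch1 was then 3.36, Pts 0.94, Spr -0.48 and Qdpr 0.59, and 10 pathway genes were higher, against 6 with TMM, Cbr1, Slc18a2 and Gmps being among the added ones. With that scaling Pcbd2 (0.23), Ddah1 (0.0339), Asl (0.19) and Guk1 (0.22) turned to a positive log2 fold change, none of them called with TMM. Leaving out 1 library at a time changed the sign of 4 genes with no call: Pcbd2 ran from -0.0994 to 0.0091, Impdh2 from -0.0183 to 0.112, Guk1 from -0.104 to 0.0183 and Asl from -0.163 to 0.0724. The pathway counts ran from 12 to 16 changed genes over the 16 alternatives. With the library number as a replicate block 5742 genes changed (3054 higher and 2688 lower in DDR2-plus), and 13 pathway genes (6 higher and 7 lower). Every library correlated best with the library of the same number in the other group, as a pairing by the number in the titles would give. The depth of 111 counts or more per library bears the members' values, except that Pcbd1 had as few as 66 counts, and genes under 1 CPM rest on few reads.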
